A study of Homo sapiens with 12 samples.

Results

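A set of 9 genes was followed across MYCN and HAND2 knockdown in IMR32 cells: 5 enzymes of ganglioside synthesis that lead to GD2 (UGCG, B4GALT5, ST3GAL5, ST8SIA1 and B4GALNT1) and 4 surface proteins that are therapy targets in neuroblastoma (L1CAM, NCAM1, CD276 and DLL3). They were chosen by gene symbol, whatever their values, and make up 9 of the 27514 genes in the deposited table. All 9 had a mean of at least 1 CPM (read counts scaled to the size of the library) over the 12 samples, as had 12680 genes in all, and only these 12680 genes were tested.

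IMR32 is an established human neuroblastoma cell line with amplified MYCN, and RNA sequencing was done on 12 samples of it, 3 in each of 4 groups. All cells received siRNA by Nucleofector electroporation and were kept in growth medium for 72 h before total RNA was taken. The groups received a control siRNA (labelled siCTR, here siCtrl), an siRNA against MYCN (siMYCN_2, here siMYCN), an siRNA against HAND2 (siHAND2_3, here siHAND2), or both together (here the combined knockdown). Each target was thus reduced with a single siRNA label in a single cell line, and the labels do not say whether the 3 replicates were separate cultures, so the p-values measure the spread between these samples, which may be technical. MYCN and HAND2 encode transcription factors of neuroblastoma cells, and the series asks which genes they regulate.

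GD2 is a disialoganglioside, a lipid with a sialylated sugar head, that is abundant on neuroblastoma cells and is the target of the antibody dinutuximab. Its synthesis runs in steps: UGCG adds glucose to ceramide, B4GALT5 or B4GALT6 adds galactose to give lactosylceramide, ST3GAL5 (GM3 synthase) adds a first sialic acid to give GM3, ST8SIA1 (GD3 synthase) adds another to give GD3, and B4GALNT1 adds N-acetylgalactosamine, which turns GD3 into GD2 and GM3 into GM2. L1CAM and NCAM1 are adhesion molecules of the immunoglobulin superfamily, CD276 (B7-H3) is an immune checkpoint protein, and DLL3 is a Notch ligand, and each of the 4 is pursued with antibodies or engineered T cells. The data measure mRNA and hold no measurement of GD2 or of protein on the cell surface.

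Depth was estimated at 31.6 to 64.2 M reads per sample from the step between low values, and 3 reads are then worth 0.0468 to 0.0949 CPM (a floor for counting error only). The share of reads in listed genes was 65.1% ± 0.736 (SD, n = 3) in siCtrl, 62.4% ± 0.979 with siMYCN, 59.4% ± 2.39 with siHAND2, and 58.4%, 51.4% and 44.3% in replicates 1, 2 and 3 of the combined knockdown. The 3 combined samples thus differed from each other in about even steps. Replicate 3 of the combined knockdown had the lowest share of all samples, and its CPM were low for most genes. Values were therefore given on 2 scales, CPM as deposited and CPM rescaled by each sample's median ratio over 10192 genes. On the deposited scale the median log2 change over all tested genes was 0.01 (siMYCN), -0.14 (siHAND2) and -0.28 (combined knockdown), and after rescaling it was 0.01, 0.01 and 0.04. MYCN stood at 1009 CPM ± 42.6 (SD, n = 3) in siCtrl, 682 ± 22.8 with siMYCN, 849 ± 48.7 with siHAND2 and 482 ± 64.3 in the combined knockdown. HAND2 stood at 239 CPM ± 15.3 in siCtrl, 326 ± 7.5 with siMYCN, 62.3 ± 7.06 with siHAND2 and 73.5 ± 11.1 in the combined knockdown. MYCN thus kept 67.5% of its siCtrl level under its own siRNA, and HAND2 kept 26.0%. After rescaling these were 68.0% and 29.1%. MYCN with siHAND2 was at 84.1% of siCtrl as deposited and 93.9% after rescaling. In the combined knockdown MYCN was at 47.7% as deposited and 61.0% after rescaling, and HAND2 at 30.7% and 39.2%. Of 8 neuroblastoma markers, 6 had a mean of at least 1 CPM in all 4 groups. DBH was at 2.65 CPM in siCtrl, 7.99 with siMYCN, 0.929 with siHAND2 and 0.942 in the combined knockdown, and TH at 0.120, 0.350, 1.07 and 1.58. The other-cell markers PTPRC, PECAM1, EPCAM, ALB and PRRX1 had group means of at most 0.160 CPM, and PRRX1 was at the table's constant in all samples. COL1A1 stood at 7.90 CPM in siCtrl, 6.13 with siMYCN, 1.41 with siHAND2 and 0.781 in the combined knockdown. The 8 other-cell markers together summed to 7.79 to 9.89 CPM in siCtrl, 8.07 to 8.76 in siMYCN, 2.41 to 3.04 in siHAND2 and 2.24 to 3.19 in the combined knockdown, and their part in the results below was not tested.

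ST8SIA1 and L1CAM were the members that rose in all 3 knockdowns, DLL3 rose in both groups with the HAND2 siRNA, and B4GALNT1, ST3GAL5, NCAM1 and CD276 rose in siMYCN. After rescaling these 4 also rose in the combined knockdown, by 0.47, 0.56, 0.48 and 0.35, and B4GALNT1 and ST3GAL5 in siHAND2. UGCG fell in the combined knockdown. A gene is termed called where limma's test across all 12680 genes gave a Benjamini-Hochberg adjusted p under 0.05, and changes are log2 differences of CPM + 1. In siMYCN, 6 of the 9 members were called higher and 0 lower, beside 17.4% of all tested genes called higher and 16.3% called lower. In siHAND2, 3 were called higher and 0 lower, beside 12.3% and 30.4% of all genes. In the combined knockdown, 3 were called higher and 2 lower, beside 17.4% and 50.1%. After rescaling, the members called in siMYCN were again 6 higher and 0 lower, beside 25.4% and 22.5% of all genes, and those in siHAND2 were 5 higher and 0 lower, beside 25.9% and 24.9%. In the combined knockdown they were 7 higher and 1 lower, beside 37.7% and 33.0%. Without replicate 3 of the combined knockdown, 5 were called higher and 1 lower on the deposited scale, beside 22.3% and 45.6% of all genes. The 3 comparisons share the siCtrl samples. In these bulk samples, fewer cells that make an mRNA and less of it per cell cannot be told apart.

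**Figure D1:**
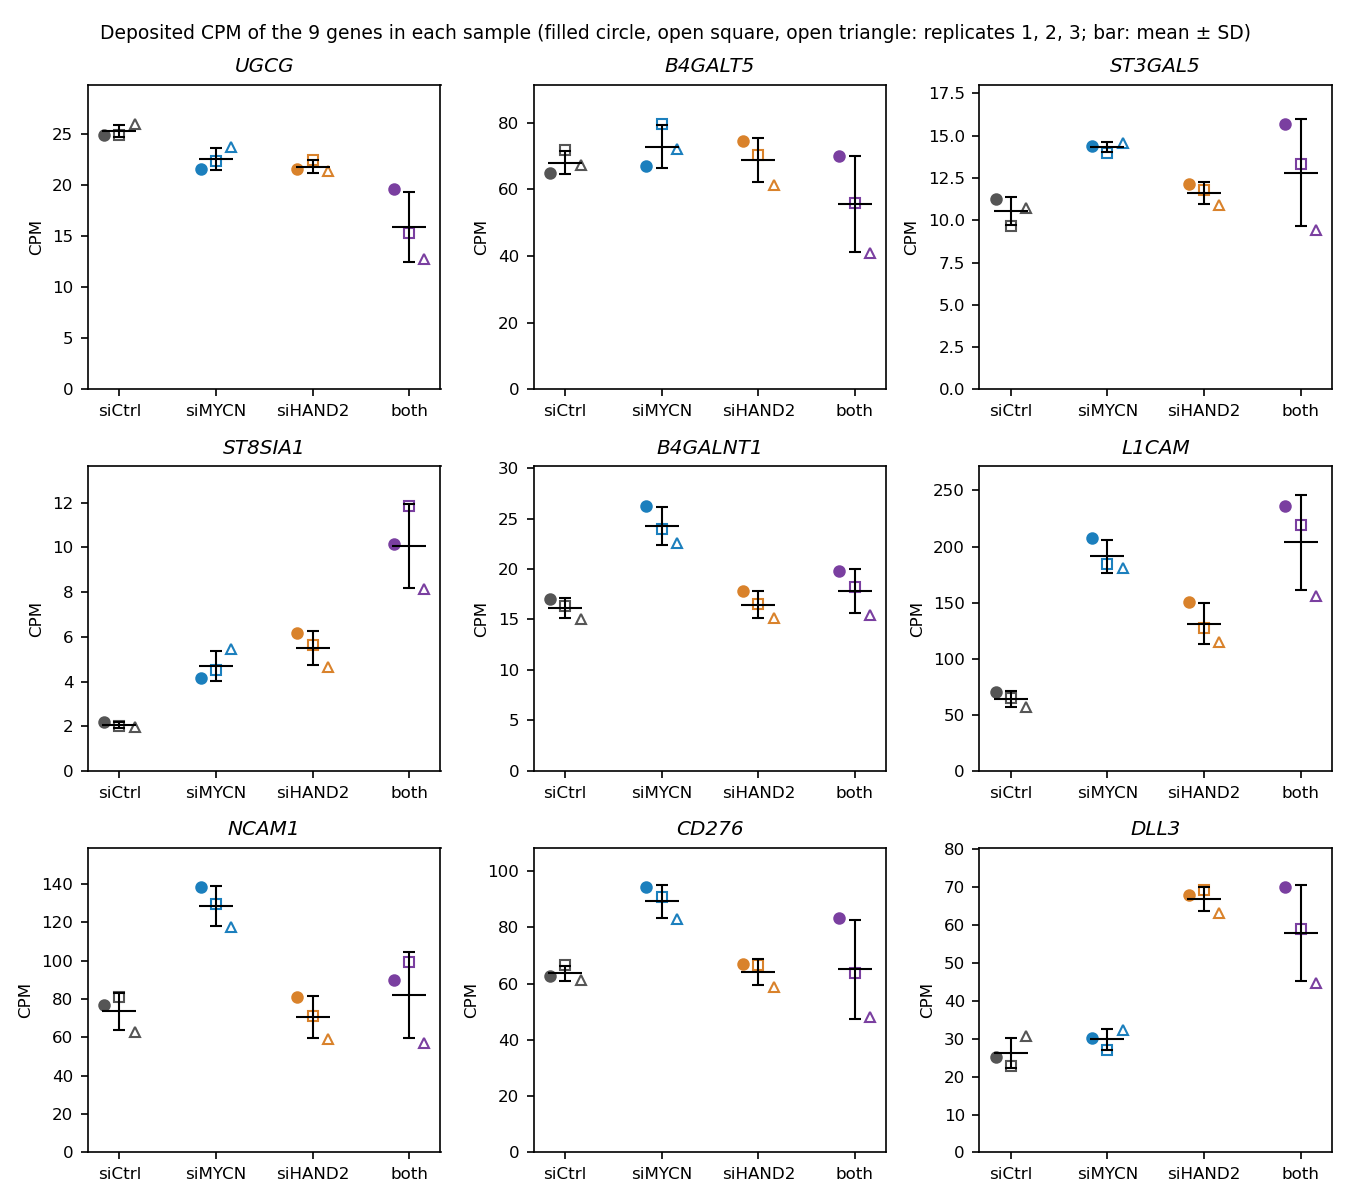
Deposited CPM (vertical axes, from 0, scaled per gene) of the 9 genes in each of the 12 samples, by group, where "both" is the combined knockdown. Points are samples, and the bars give the mean ± SD of 3. ST8SIA1 runs from 1.97 to 11.9 CPM and is lowest in the 3 siCtrl samples, and replicate 3 of the combined knockdown (triangle) is the lowest of its group in all 9 panels.

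The genes are described in the order of the pathway, with positions in hg19 as the deposited table gives them. UGCG makes glucosylceramide, from which the gangliosides followed here are built. It stood at 24.9, 24.9 and 25.9 CPM in siCtrl replicates 1, 2 and 3, at 21.6, 22.3 and 23.6 in siMYCN, at 21.6, 22.5 and 21.3 in siHAND2, and at 19.6, 15.3 and 12.7 in the combined knockdown. On the deposited scale the 9 knockdown samples were all lower than the lowest siCtrl sample. The fall was called in the combined knockdown, where the log2 change was -0.66 ± 0.12 (SE, limma adjusted p = 3.52e-05). The changes of -0.16 in siMYCN and -0.20 in siHAND2 did not pass the test, with limma adjusted p of 0.331 and 0.179. After rescaling, the combined change was -0.32 and still called. The siHAND2 samples then overlapped siCtrl, with a change of -0.05 that was not called. UGCG lies on the plus strand of chromosome 9 (start 114659046, end 114697654).

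B4GALT5 adds galactose to glucosylceramide, and B4GALT6 can do the same. B4GALT5 stood at 64.9, 71.7 and 67.4 CPM in siCtrl, at 66.9, 79.5 and 72.0 with siMYCN, at 74.4, 70.4 and 61.4 with siHAND2, and at 69.9, 56.0 and 41.0 in the combined knockdown. The groups overlapped in all 3 comparisons with siCtrl. The combined change of -0.32 ± 0.14 (SE) was at the edge of the threshold (limma adjusted p = 0.0497). It was -0.12 and not called without replicate 3 of the combined knockdown, and -0.50 without replicate 1, and it was 0.04 and not called after rescaling, so no direction held on both scales. The changes were 0.09 in siMYCN (95% interval -0.20 to 0.39) and 0.01 in siHAND2 (-0.28 to 0.30). The gene is on the minus strand of chromosome 20 (start 48249483, end 48330421).

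B4GALT6, the other lactosylceramide synthase, was at 0.996 CPM per kilobase of exon in siCtrl, against 14.4 for B4GALT5. Its samples were at 5.29, 5.71 and 4.44 CPM in siCtrl, 3.96, 3.95 and 4.47 with siMYCN, 4.37, 4.06 and 3.55 with siHAND2 and 2.12, 3.24 and 2.58 in the combined knockdown. The combined change was -0.76 and called (limma adjusted p = 9.08e-06) and it was -0.48 after rescaling.

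ST3GAL5 makes GM3, the branch point from which the a-series and b-series gangliosides derive. The gene is on the minus strand of chromosome 2 (start 86066271, end 86116157). Its levels were 11.3, 9.65 and 10.8 CPM in siCtrl, 14.4, 14.0 and 14.6 with siMYCN, 12.2, 11.8 and 10.9 with siHAND2, and 15.7, 13.3 and 9.43 in the combined knockdown. All siMYCN samples lay above the siCtrl samples, while the siHAND2 and combined samples overlapped them. The rise in siMYCN was 0.41 ± 0.13 (SE, limma adjusted p = 0.0172), and it was not called without siCtrl replicate 2 (0.35) or siMYCN replicate 3 (0.40). In siHAND2 the change was 0.13 (limma adjusted p = 0.460) and in the combined knockdown 0.23 (limma adjusted p = 0.116), and after rescaling both were called, at 0.27 and 0.56. Replicate 3 of the combined knockdown was the sample below the siCtrl range, and without it the combined change was 0.42 on the deposited scale and called.

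ST8SIA1 commits GM3 to the b-series by making GD3, the direct precursor of GD2. It had the fewest reads of the 9 genes, an estimated 80 to 113 per siCtrl sample. Its values were 2.20, 2.01 and 1.97 CPM in siCtrl, 4.14, 4.52 and 5.44 with siMYCN, 6.17, 5.62 and 4.67 with siHAND2, and 10.2, 11.9 and 8.14 in the combined knockdown. All 9 knockdown samples were above all siCtrl samples, and all combined samples were above all samples of either single knockdown. The mean was 2.28-fold of siCtrl in siMYCN, 2.66-fold in siHAND2 and 4.88-fold in the combined knockdown. As log2(CPM + 1), a scale that makes the rise of a gene at this level look smaller, the rises were 0.89 ± 0.13 (SE, limma adjusted p = 8.58e-06), 1.08 ± 0.13 (3.09e-07) and 1.84 ± 0.13 (4.87e-12). After rescaling they were 0.88, 1.19 and 2.14, all called. Among the 12680 tested genes, 2.32% had a larger log2 change than ST8SIA1 with siMYCN, 1.62% with siHAND2 and 0.962% in the combined knockdown, by the deposited log2 change.

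The ST8SIA1 gene lies on the minus strand of chromosome 12 in hg19 (start 22346325, end 22487648). The 243 bases before it that lie outside annotated exons are shown because this gene rose in all 3 knockdowns and the knocked-down factors bind E-boxes, the 6-base motif CANNTG, of which CACGTG is the form best known for MYC proteins and CATCTG a form bound by HAND2. The sequence, from RefSeq's promoter table (GRCh38.p14) and matched once in hg19, is chr12:22487649-22487891, minus strand.
ST8SIA1: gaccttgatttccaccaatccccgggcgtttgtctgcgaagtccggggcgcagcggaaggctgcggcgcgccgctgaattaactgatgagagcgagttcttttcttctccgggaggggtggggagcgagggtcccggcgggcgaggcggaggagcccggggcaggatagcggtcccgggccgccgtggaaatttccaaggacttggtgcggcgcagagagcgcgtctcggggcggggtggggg
None of the 3 motifs is in the 250 bases before its start, which says only that these letters are not in that window. The table held 12 windows of 6 members (UGCG, B4GALT5, ST3GAL5, ST8SIA1, L1CAM and CD276). In the 250 bases before the start, on either strand, CACGTG was in 6.34% of all 35116 windows of the table and in 0 of the 6 members, and CATCTG in 12.2% and in 2 members. CANNTG, which also counts every match of the other motifs, was in 61.8% of windows and in 3 members (B4GALT5, ST3GAL5 and L1CAM). The percentages count single windows, whereas a member was counted if any of its windows held the motif. Some members had several windows, so the member counts cannot be set against the percentages. Both stretches with CATCTG are shown with 12 bases on each side and the motif in capitals. That of ST3GAL5 is chr2:86116123-86116152, and that of L1CAM is chrX:153141460-153141489, and each lies inside the listed span of its gene, before a RefSeq start within that span. Both are read on the minus strand, in hg19, and the L1CAM stretch carries the motif as its reverse complement.
ST3GAL5: gcccctcctccgCATCTGagcgggggagcg
L1CAM: cccgggcttaccCAGATGttagtcactaac
These matches describe the letters, and no binding data were analysed here.

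B4GALNT1 is GM2/GD2 synthase and makes GD2 itself. It stood at 17.0, 16.4 and 15.1 CPM in siCtrl, at 26.3, 23.9 and 22.6 with siMYCN, at 17.8, 16.5 and 15.2 with siHAND2, and at 19.8, 18.2 and 15.5 in the combined knockdown. The siMYCN samples lay above all other samples of the gene. The rise in siMYCN was 0.56 ± 0.11 (SE, limma adjusted p = 0.000449), a mean of 1.5-fold of siCtrl. In siHAND2 the change was 0.03 (95% interval -0.21 to 0.26, limma adjusted p = 0.877) and in the combined knockdown 0.13 (-0.11 to 0.36, 0.325). After rescaling these were 0.18 and 0.47 and both were called. The gene's span (hg19 chromosome 12, start 58019678, end 58027022, minus strand) overlaps SLC26A10 on the other strand, which was at 1.75 to 3.14 CPM, and whether the counting used strand is not given in the sources used here.

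**Figure D2:**
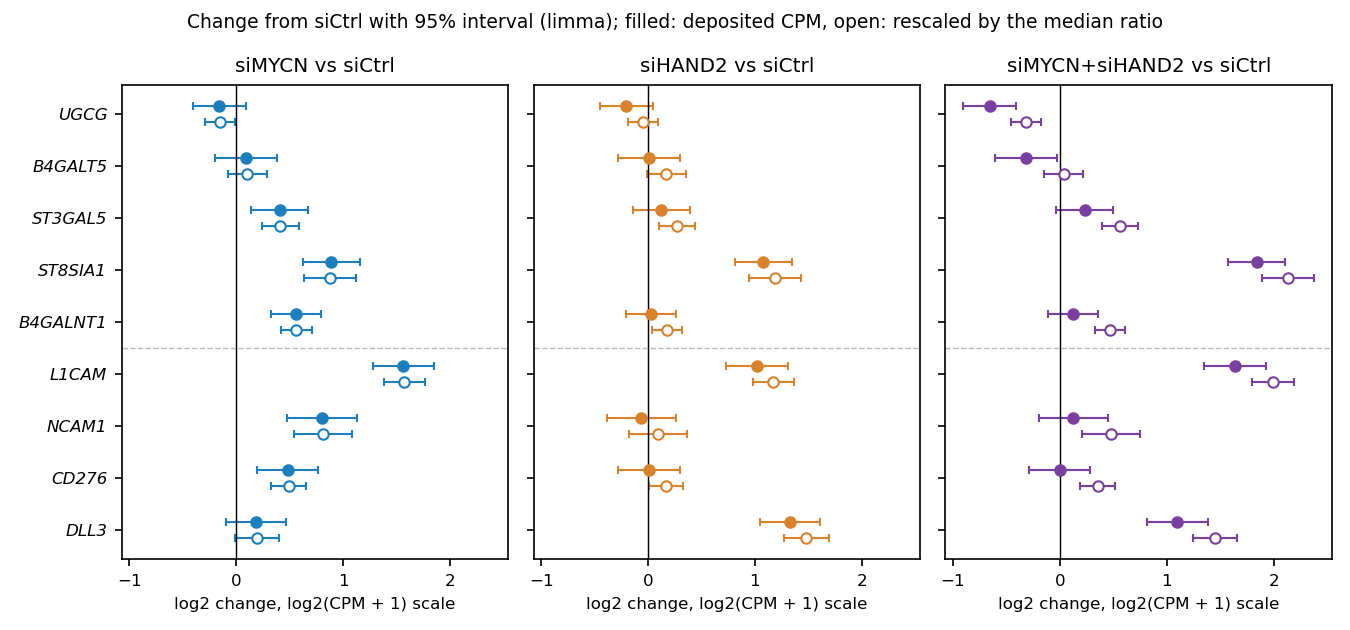
Log2 change from siCtrl of each gene (horizontal axis, log2(CPM + 1) scale) in the 3 knockdowns, with limma's 95% interval, on deposited CPM (filled) and after rescaling (open). In siMYCN both scales give nearly the same points, and in the combined knockdown the rescaled points lie to the right, at 0.47 in place of 0.13 for B4GALNT1 and at 0.04 in place of -0.32 for B4GALT5.

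The enzymes were also compared within each sample, where a factor common to all genes of the sample cancels apart from the pseudocount of 1. The log2 ratio of ST8SIA1 to ST3GAL5, the enzymes on each side of GM3, was -1.94, -1.82 and -1.98 in siCtrl, -1.58, -1.44 and -1.27 in siMYCN, -0.88, -0.95 and -1.07 in siHAND2, and -0.58, -0.16 and -0.19 in the combined knockdown. The 4 groups did not overlap, and their order was siCtrl, siMYCN, siHAND2, combined. Relative to siCtrl the ratio was higher by 0.48, 0.95 and 1.61. The ratio of B4GALNT1 to ST8SIA1, the enzymes on each side of GD3, differed from siCtrl by -0.33 (siMYCN), -1.05 (siHAND2) and -1.71 (combined), with no overlap. For UGCG to ST3GAL5 the differences were -0.57, -0.33 and -0.89, with no overlap. That of B4GALNT1 to ST3GAL5 differed by 0.15, -0.10 and -0.11 with overlap in each comparison. For B4GALT5 to B4GALT6 the differences were 0.35, 0.31 and 0.44, the last with overlap. With 3 against 3 samples a two-sided exact permutation test cannot go below p = 0.1, and each of the 11 comparisons without overlap reached that value (adjusted p = 0.136 over 15 tests), so none could pass 0.05.

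**Figure D3:**
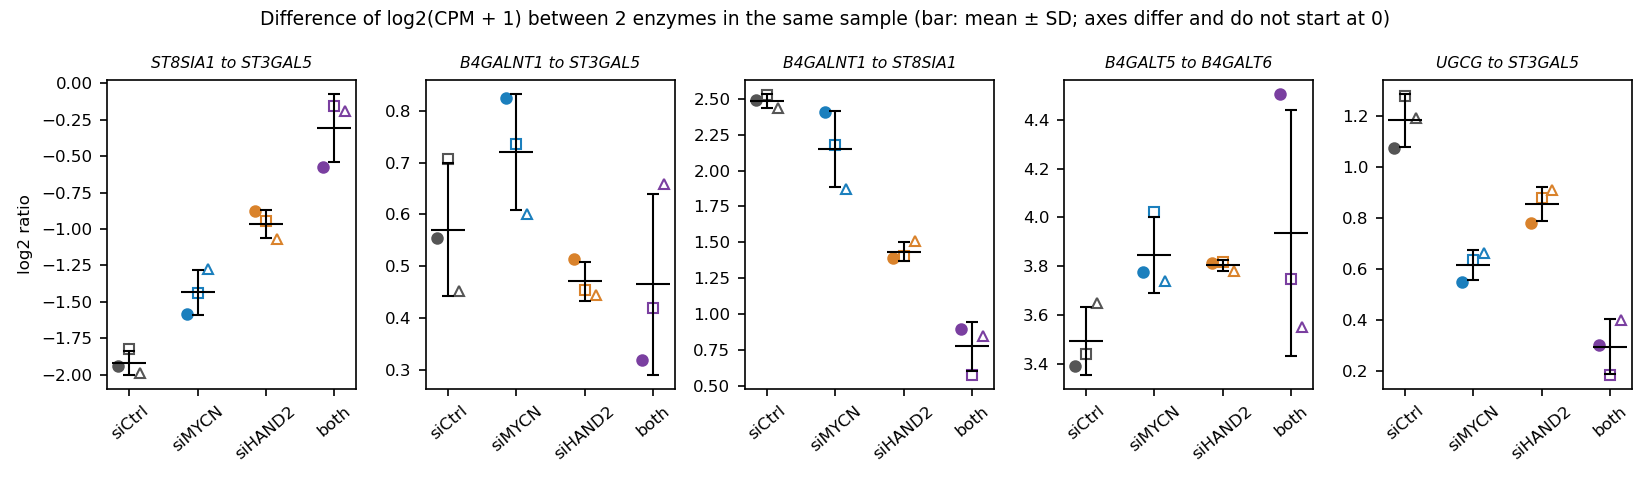
Log2 ratio of 2 enzymes (difference of their log2(CPM + 1), vertical axes that differ between panels and do not start at 0) in each sample, with the mean ± SD of 3 per group. ST8SIA1 to ST3GAL5 climbs from a mean of -1.92 in siCtrl to -0.31 in the combined knockdown, while B4GALNT1 to ST3GAL5 overlaps siCtrl in every knockdown.

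L1CAM, an adhesion molecule of axons, had the largest rise of the 9 genes in siMYCN. It stood at 70.2, 65.4 and 56.8 CPM in siCtrl, at 208, 185 and 181 with siMYCN, at 151, 128 and 115 with siHAND2, and at 236, 220 and 156 in the combined knockdown. All knockdown samples lay above all siCtrl samples, and the siMYCN and combined samples overlapped each other. The rises were 1.56 ± 0.14 (SE) in siMYCN (limma adjusted p = 7.09e-09), 1.02 ± 0.14 in siHAND2 (2.27e-06) and 1.64 ± 0.14 in the combined knockdown (1.64e-10), or 2.98-fold, 2.04-fold and 3.18-fold of siCtrl in mean CPM. After rescaling they were 1.57, 1.17 and 1.99. Of all tested genes, 0.276% had a larger log2 change in siMYCN on the deposited scale. The gene (hg19 chromosome X, start 153126969, end 153151628, minus strand) overlaps LCA10 on the other strand, which did not exceed 0.441 CPM.

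NCAM1, the neural cell adhesion molecule that carries polysialic acid, stood at 76.7, 80.9 and 62.8 CPM in siCtrl and at 138, 130 and 118 in siMYCN. It stood at 81.1, 71.2 and 59.2 CPM in siHAND2 and at 89.8, 99.3 and 56.9 in the combined knockdown. The siMYCN samples lay above all other samples, and both other knockdowns overlapped siCtrl. The rise in siMYCN was 0.80 ± 0.16 (SE, limma adjusted p = 0.000305). The change in siHAND2 was -0.06 (95% interval -0.39 to 0.26), and 0.10 after rescaling, called on neither scale. In the combined knockdown it was 0.13 (-0.20 to 0.45, limma adjusted p = 0.490), and 0.48 and called after rescaling. Without replicate 3 of the combined knockdown it was 0.37 on the deposited scale and called. The span of NCAM1 (chromosome 11, start 112831969, end 113149158, plus strand) overlaps LOC101928847 and NCAM1-AS1 on the other strand, which did not exceed 1.51 and 0.152 CPM.

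CD276, on the plus strand of chromosome 15 (start 73976622, end 74006859), encodes a B7-family protein of tumour cells. It stood at 62.7, 66.6 and 61.4 CPM in siCtrl, at 94.2, 90.6 and 82.9 with siMYCN, at 66.8, 66.5 and 58.8 with siHAND2, and at 83.2, 63.8 and 48.2 in the combined knockdown. The siMYCN samples were above all siCtrl samples, and the combined samples lay on both sides of them. The rise in siMYCN was 0.48 ± 0.14 (SE, limma adjusted p = 0.00902). The change in siHAND2 was 0.01 (95% interval -0.28 to 0.30, limma adjusted p = 0.965). The combined mean of 65.1 CPM ± 17.5 (SD) was 102% of the siCtrl mean (limma adjusted p = 1.00), and after rescaling the change was 0.35 and called.

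DLL3, on the plus strand of chromosome 19 (start 39989557, end 39999121), encodes a divergent Notch ligand that inhibits Notch signalling within the same cell. It stood at 25.1, 22.9 and 30.7 CPM in siCtrl, at 30.3, 26.9 and 32.3 with siMYCN, at 68.0, 69.2 and 63.2 with siHAND2, and at 70.0, 59.0 and 44.7 in the combined knockdown. Both groups with the HAND2 siRNA lay above all siCtrl and siMYCN samples, which overlapped each other. The rise was 1.33 ± 0.14 (SE) in siHAND2 (limma adjusted p = 2.65e-08) and 1.10 ± 0.14 in the combined knockdown (1.20e-07), or 2.55-fold and 2.21-fold of siCtrl. In siMYCN the change was 0.19 (95% interval -0.10 to 0.47, limma adjusted p = 0.320). After rescaling the 3 changes were 0.19, 1.48 and 1.45 in the order siMYCN, siHAND2, combined, and the last 2 were called.

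Levels of different genes were compared per length, as CPM per kilobase of union exon in the GENCODE annotation of GRCh37, for the siCtrl samples. B4GALT5 was at 14.4 ± 0.728 (SD, n = 3), CD276 at 11.6 ± 0.50, DLL3 at 10.0 ± 1.54, L1CAM at 8.82 ± 0.931, NCAM1 at 5.79 ± 0.746 and UGCG at 5.53 ± 0.129. B4GALNT1 was at 2.05 ± 0.127, ST3GAL5 at 0.648 ± 0.0511 and ST8SIA1 at 0.142 ± 0.00863. By this measure the 3 enzymes that make GM3, GD3 and GD2 had the lowest values of the 9, with ST8SIA1 last. For B4GALNT1 the exon length used (7888 bases) exceeds the listed span of the gene (7345 bases). Its value may thus be too low, and its place in this order is not settled. The exon length counts every annotated transcript, which lowers the value of genes with long alternative exons.

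The single knockdowns were compared with each other directly. Between siMYCN and siHAND2, 5 members were called, beside 35.0% of all genes. L1CAM was higher in siMYCN by 0.55, NCAM1 by 0.87, B4GALNT1 by 0.53 and CD276 by 0.47, and DLL3 was lower by 1.14 (log2 change -1.14), with no overlap of samples in any of the 5. ST8SIA1 differed by -0.19 (95% interval -0.45 to 0.08, limma adjusted p = 0.278) with overlapping samples, and by -0.31 after rescaling, which was called. After rescaling 6 members were called, beside 44.5% of genes. With the replicate number, which pairs these samples, as a block, 6 members were called on the deposited scale, beside 40.7% of genes, and ST3GAL5 was the one added, at 0.28.

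Adding the HAND2 siRNA to the MYCN siRNA changed 7 members relative to siMYCN alone, beside 58.9% of all genes. ST8SIA1 was higher in the combined knockdown by 0.95 and DLL3 by 0.92. B4GALNT1, B4GALT5, UGCG, NCAM1 and CD276 were lower, with changes of -0.43, -0.41, -0.50, -0.68 and -0.48. Without replicate 3 of the combined knockdown 6 members were called, beside 53.8% of genes, and these 5 changes were -0.34, -0.21, -0.36, -0.44 and -0.29, of which that of B4GALT5 was not called. It was also not called without replicate 2 of siMYCN (-0.35). After rescaling 5 members were called, beside 56.7% of genes. The rises of ST8SIA1 and DLL3 were then 1.26 each, L1CAM was higher by 0.42, UGCG and NCAM1 changed by -0.17 and -0.33, and the changes of B4GALNT1, B4GALT5 and CD276 (-0.10, -0.07 and -0.14) were not called.

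Relative to siHAND2 alone, 3 members were called in the combined knockdown, beside 40.3% of all genes. ST8SIA1 was higher by 0.76 and L1CAM by 0.62, and UGCG changed by -0.45. After rescaling 6 members were called, beside 49.7% of genes, and B4GALNT1 (0.29), ST3GAL5 (0.29) and NCAM1 (0.39) were the added ones. DLL3 differed by -0.23 on the deposited scale and -0.03 after rescaling, called on neither, with a 95% interval of -0.51 to 0.06 on the deposited scale. On that scale 5 members were called without replicate 1 of the combined knockdown, beside 54.9% of genes, and 5 without replicate 3, beside 39.6%.

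The interaction, the combined change minus the sum of both single changes, was called for 1 member, L1CAM, beside 4.01% of all genes. The single rises of L1CAM add up to 2.58, and the combined rise was 1.64, so the interaction was -0.94 (95% interval -1.35 to -0.54, limma adjusted p = 0.00705). After rescaling it was -0.75 and again the only member called, beside 6.14% of genes. All 9 interactions were below 0 on the deposited scale, where the median over all tested genes was -0.18, and 8 of 9 were below 0 after rescaling, where that median was -0.01. On the log2(CPM + 1) scale ST8SIA1 was nearest to the sum, with a combined rise of 1.84 against a sum of 1.97. Its interaction was -0.13 (-0.51 to 0.25), and 0.07 after rescaling. At 2.06 CPM in siCtrl, it is the member whose changes the pseudocount of 1 shrinks most, so its place and sign describe that scale only. In mean CPM the combined knockdown was at 4.88-fold of siCtrl, below the product of 2.28-fold (siMYCN) and 2.66-fold (siHAND2), which was not tested. Without replicate 1 of the combined knockdown 8 members were called for the interaction, but so were 35.0% of all genes, whose median interaction was then -0.28, and without replicate 3 the number was 1, beside 4.04%. The count thus depended on which samples of that group were kept, for the members as for all genes.

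**Figure D4:**
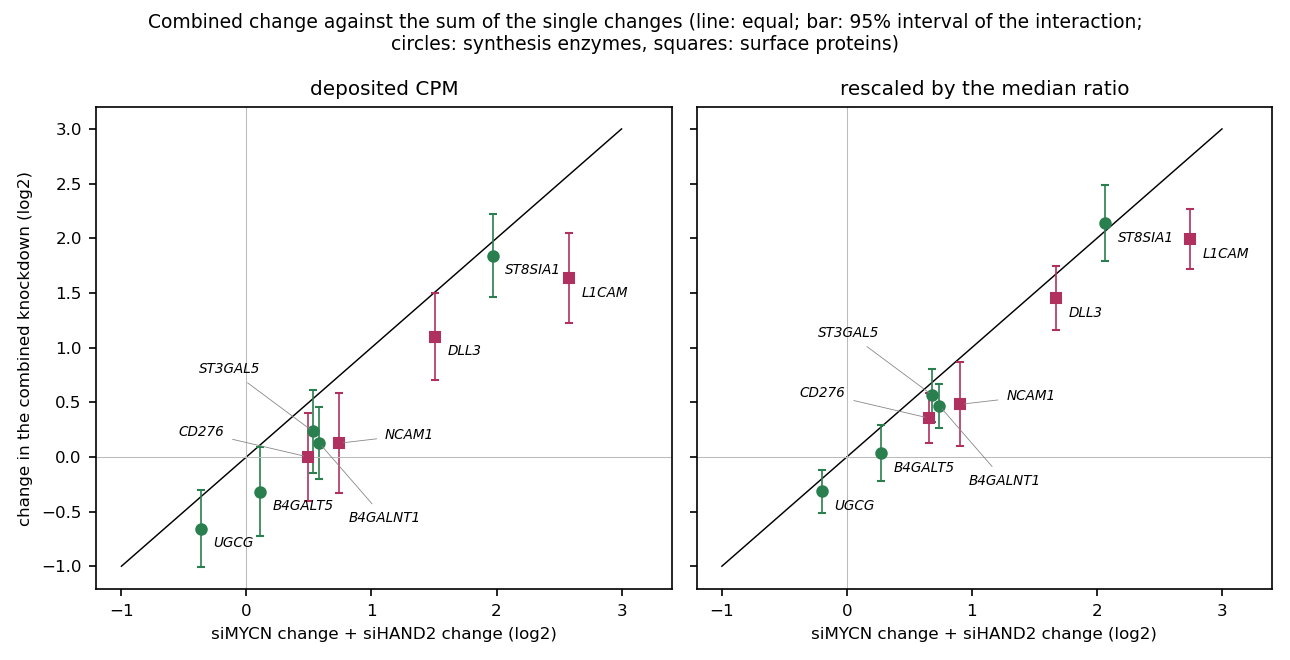
Log2 change in the combined knockdown (vertical axis) against the sum of the siMYCN and siHAND2 changes (horizontal axis) for the 9 genes, on deposited CPM (left) and after rescaling (right), with circles for enzymes and squares for surface proteins. The line marks equality and the bars are the 95% interval of the interaction. L1CAM lies furthest below the line on both scales, at 1.64 against 2.58 on the left, and the interval of ST8SIA1 crosses it.

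The order of the 4 groups was read from the mean CPM on both scales, and neighbours were compared by the limma test. For ST8SIA1 the deposited order was siCtrl (2.06 CPM), siMYCN (4.70), siHAND2 (5.49), combined (10.1), where siMYCN and siHAND2 did not pass the test, and after rescaling all 3 pairs of neighbours in that order did. For L1CAM it was siCtrl (64.1), siHAND2 (131), siMYCN (191), combined (204), where the last pair did not pass as deposited and did after rescaling. For DLL3 siCtrl (26.2) and siMYCN (29.8) did not pass on either scale, and neither did the combined knockdown (57.9) and siHAND2 (66.8). The place of the combined knockdown in the other genes depended on the scale. As deposited, siMYCN was the highest for B4GALNT1, NCAM1 and CD276 (24.3, 129 and 89.2 CPM) and passed against the next group, the combined knockdown, while no other neighbours did. After rescaling siMYCN was still the highest of the 3, but against the combined knockdown it passed for NCAM1 (limma adjusted p = 0.0370) and not for B4GALNT1 (0.235) or CD276 (0.138). On that scale the combined knockdown passed against siHAND2, its lower neighbour, for B4GALNT1 (limma adjusted p = 0.00226) and NCAM1 (0.0207), and siHAND2 against siCtrl for B4GALNT1 (0.0394). For UGCG the combined knockdown was the lowest (15.9) and passed against siHAND2 (21.8), its nearest neighbour, and after rescaling it passed against siMYCN, then the nearest. For ST3GAL5 no neighbours passed as deposited, where siMYCN was the highest, and after rescaling the combined knockdown was the highest and siCtrl against siHAND2 passed (limma adjusted p = 0.0115). For B4GALT5 the combined knockdown was the lowest as deposited and passed against siCtrl, and after rescaling siCtrl was the lowest and no neighbours passed.

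Genes on both sides of the pathway were counted in lists, and at most 4 called genes of each list are named, the largest changes first. Combined counts are also given without replicate 3 of that group where they move. Of all tested genes, 17.4% were called higher and 16.3% lower in siMYCN. In siHAND2 these shares were 12.3% and 30.4%, and in the combined knockdown 17.4% and 50.1%. After rescaling they were 25.4% and 22.5%, 25.9% and 24.9%, and 37.7% and 33.0%. Without replicate 3 the combined shares were 22.3% and 45.6%. These shares stand beside the counts of every list below, and no list was tested against them. Of 15 genes of ceramide and glucosylceramide supply, 12 were tested, and SPTLC3 and SGMS2 did not exceed 3 reads in any sample. In siMYCN 2 rose and 1 fell, in siHAND2 1 rose and 3 fell, and in the combined knockdown 1 rose and 9 fell, with a median combined change of -0.53. After rescaling the counts were 5 and 2, 3 and 1, and 3 and 6, with a median of -0.17 in the combined knockdown. Without replicate 3 the combined counts were 2 and 7. CERS4, a ceramide synthase, rose from 1.53 CPM in siCtrl to 3.21, 2.5 and 3.57 in siMYCN, siHAND2 and the combined knockdown. SGMS1, which uses ceramide for sphingomyelin, fell from 6.30 to 4.72, 4.80 and 2.95, and in siHAND2 it lost its call after rescaling, where the change was -0.20 in place of -0.33. KDSR, an early enzyme of ceramide synthesis, changed from 19.7 to 11.8 CPM in the combined knockdown, by -0.71 as deposited and -0.38 after rescaling, both called. In siMYCN it changed by -0.25, and by -0.24 and called after rescaling.

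Sialic acid supply, 6 genes that make, activate and carry the sugar that ST3GAL5 and ST8SIA1 attach, was all tested. In siMYCN 0 rose and 1 fell, in siHAND2 0 and 3, and in the combined knockdown 0 and 4. After rescaling the counts were 1 and 2, 1 and 3, and 2 and 2. The combined counts were 1 and 3 without replicate 3. NANP, the phosphatase that releases free sialic acid, fell by 0.50, 0.74 and 1.40 (14.6 CPM in siCtrl against 10.0, 8.37 and 4.91), and by 0.49, 0.59 and 1.09 after rescaling. NANS, the synthase of the step before it, fell by 0.51 in siHAND2 and 1.16 in the combined knockdown, and by 0.36 and 0.83 after rescaling. CMAS, which activates sialic acid, and SLC35A1, which carries it into the Golgi, had combined changes of -0.37 and -0.25, both called, and -0.02 and 0.09 after rescaling, so no direction held on both scales for SLC35A1.

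Other transferases of gangliosides and related glycolipids numbered 14, of which 10 were tested. In siMYCN 5 rose and 0 fell, in siHAND2 3 and 3, and in the combined knockdown 3 and 4, and after rescaling 5 and 1, 5 and 3, and 5 and 3. Leaving out replicate 3 gave 3 and 3 in the combined knockdown. ST6GALNAC3, an alpha-2,6-sialyltransferase, was at 17.9 CPM in siCtrl, 24.5 with siMYCN, 8.90 with siHAND2 and 7.64 in the combined knockdown, with changes of 0.44, -0.93 and -1.13, all called. ST3GAL3 rose in siMYCN by 0.64 (3.57 to 6.13 CPM). B3GNT5, which starts the lacto-series from lactosylceramide, changed by -0.38 in siHAND2 and -0.73 in the combined knockdown, and ST6GALNAC6 by -0.37 and -0.71, all called. After rescaling these were -0.23 and -0.39 for B3GNT5 and -0.22 and -0.37 for ST6GALNAC6, again called, and ST3GAL3 was also called in the combined knockdown, at 0.39 in place of 0.11.

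Ganglioside breakdown, lysosomal hydrolases and their helpers, held 14 genes, of which 13 were tested. In siMYCN 2 rose and 0 fell, in siHAND2 2 and 1, and in the combined knockdown 4 and 5, and after rescaling 6 and 0, 6 and 1, and 7 and 3. Leaving out replicate 3 gave 5 and 5 in the combined knockdown. GBA2, a glucosylceramidase outside the lysosome that undoes the step of UGCG, was at 19.9 CPM in siCtrl, 21.8 with siMYCN, 36.1 with siHAND2 and 46.2 in the combined knockdown, with rises of 0.83 and 1.16 in the last 2. SMPD1, acid sphingomyelinase, rose by 0.66, 0.36 and 0.59, the last 0.89 after rescaling. GALC, which breaks down galactosylceramide, fell by 0.77 in the combined knockdown, and by 0.46 after rescaling.

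The relatives of L1CAM and NCAM1 together with the 2 polysialyltransferases were 6 genes, all tested. In siMYCN 6 rose and 0 fell, with a median change of 0.77 beside 0.01 over all genes, in siHAND2 3 rose and 0 fell, and in the combined knockdown 4 rose and 0 fell. After rescaling the counts were 6, 4 and 5 risen and 0 fallen. CHL1, the close homologue of L1, rose from 3.93 CPM in siCtrl to 13.6 with siMYCN, 5.34 with siHAND2 and 12.0 in the combined knockdown. NFASC, neurofascin, rose from 21.5 to 35.0, 39.9 and 55.3. ST8SIA2, which builds polysialic acid on NCAM1, rose in siMYCN from 15 to 36.6 and was at 15.7 with siHAND2 and 18.9 with both siRNAs. Its combined change was 0.31 and not called as deposited, and 0.65 and called after rescaling (limma adjusted p = 0.0133). ST8SIA4, the other polysialyltransferase, rose by 0.63, 0.54 and 0.97.

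Of 8 other B7-family genes 1 was tested, NCR3LG1 (B7-H6), the ligand of an activating receptor of natural killer cells. It fell from 22.3 CPM in siCtrl to 14.7, 13.9 and 6.52, log2 changes of -0.57, -0.65 and -1.63, and -0.56, -0.50 and -1.31 after rescaling, all called. CD86 and HHLA2 did not exceed 3 reads in any sample. CD276 thus stood beside a family of which 7 genes had a mean under 1 CPM in these cells.

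The Notch list held 10 genes, 6 of them tested. In siMYCN 1 rose and 2 fell, in siHAND2 2 and 4, and in the combined knockdown 1 and 4, and after rescaling 1 and 2, 2 and 4, and 2 and 4, and without replicate 3 the combined counts were 2 and 4. JAG1, a Notch ligand, rose by 1.5, 1.20 and 1.82 (2.89 CPM in siCtrl against 9.96, 7.94 and 13.1). The receptors NOTCH1 and NOTCH3 fell in all 3 knockdowns, by 0.48, 0.52 and 1.07 and by 0.60, 0.64 and 1.22.

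Other surface targets of neuroblastoma numbered 12, all tested. In siMYCN 7 rose and 0 fell, in siHAND2 3 and 6, and in the combined knockdown 4 and 5, and after rescaling 8 and 0, 4 and 5, and 6 and 5, and without replicate 3 the combined counts were 5 and 5. The receptor tyrosine kinase ALK was at 38.1 CPM in siCtrl, 163 with siMYCN, 11.3 with siHAND2 and 20.3 in the combined knockdown, with changes of 2.07, -1.67 and -0.88, the last -0.54 after rescaling. GFRA2, a receptor for neurturin, was at 158, 273, 53.9 and 68.9 CPM in the same order. SLC6A2, the noradrenaline transporter used for imaging with MIBG, was at 17.1, 50.3, 7.19 and 14.6. These 3 genes thus rose in siMYCN and fell in siHAND2, a pattern that none of the 9 members showed. It was not the pattern of the whole list. Some of its other genes were called higher in all 3 knockdowns after rescaling, as L1CAM and ST8SIA1 were. DLK1 rose by 1.59 in siHAND2 and 1.02 in the combined knockdown, and was at 1.85 CPM in siCtrl, 1.75 with siMYCN, 7.57 with siHAND2 and 4.98 in the combined knockdown.

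The list medians stood beside a median over all tested genes of 0.01 in siMYCN, where ceramide supply was at 0.04, sialic acid supply at -0.12, other transferases at 0.22, breakdown at 0.17, the Notch list at -0.02 and the other surface targets at 0.52. With siHAND2 the lists had medians of -0.23, -0.27, 0.05, 0.05, -0.58 and -0.23 in the same order, beside -0.14 over all genes, and the relatives of L1CAM and NCAM1 had 0.31. In the combined knockdown the order gave -0.53, -0.31, -0.09, -0.16, -0.86 and -0.08, beside -0.28, and the L1CAM and NCAM1 relatives were at 0.83. After rescaling the combined medians were -0.17, 0.03, 0.25, 0.18, -0.60 and 0.22, beside 0.04 over all genes, so the Notch list was the lowest of the 6 on both scales.

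**Figure D5:**
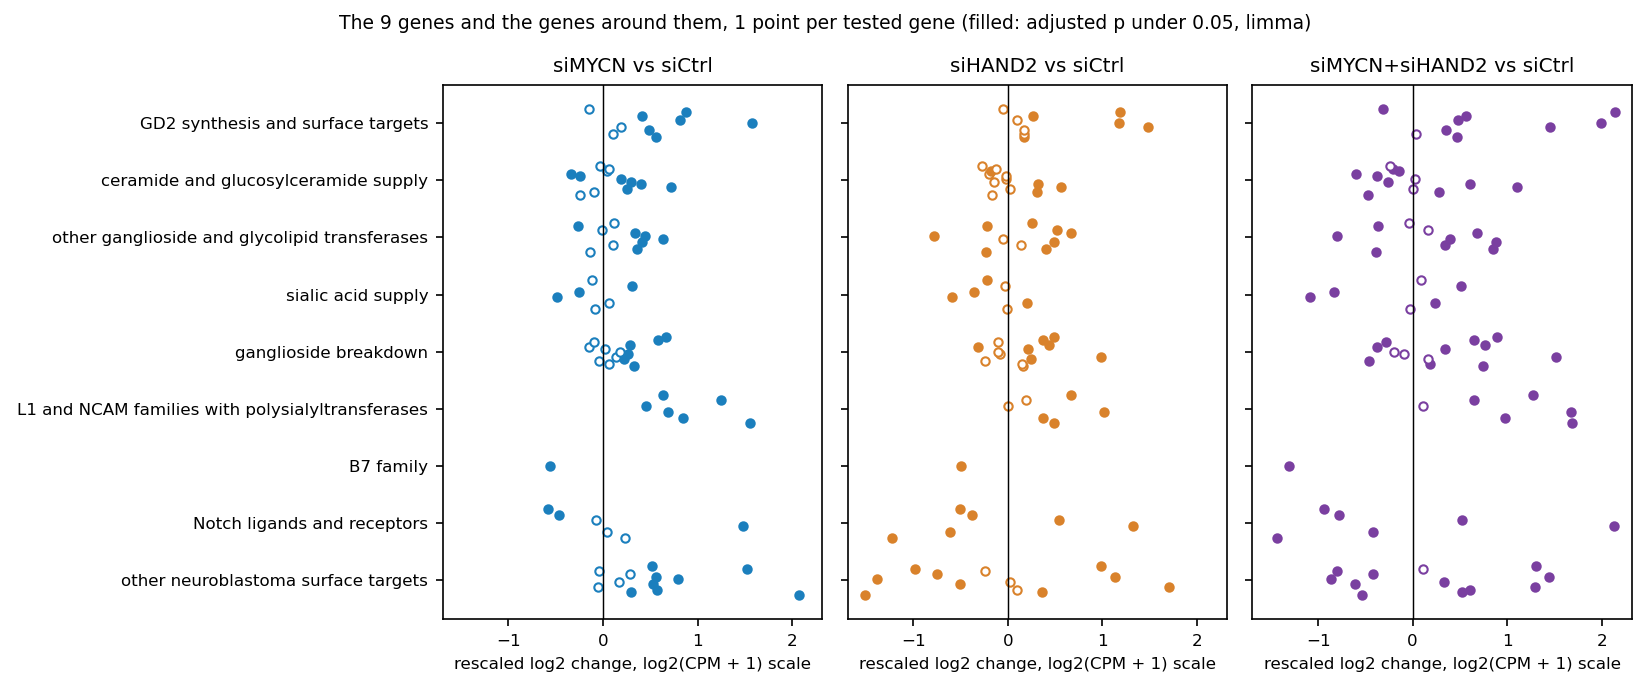
Rescaled log2 change from siCtrl (horizontal axes, log2(CPM + 1) scale) of every tested gene of each list, 1 point per gene, filled where called. All 6 genes related to L1CAM and NCAM1 lie right of 0 in siMYCN, and the single tested B7 relative lies left of 0 in each panel, at -1.31 in the combined knockdown.

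For each member the 3 genes with the most alike pattern were looked for by Pearson's r of rescaled log2(CPM + 1) over the 12 samples, among 2975 genes with a mean of at least 5 CPM and an SD of at least 0.3. These are descriptions, since the 12 points are 4 groups of 3 and share libraries. ST8SIA1 was most like KIF5A (r = 0.99), a neuronal kinesin at 8.99 CPM in siCtrl, 23.0 with siMYCN, 28.7 with siHAND2 and 53.2 in the combined knockdown, and like TRAK1. L1CAM was most like C14orf132 (0.99), MLLT11 and MVP, and DLL3 like PPP1R17 (0.99), PHLDA1 and CXXC5. PPP1R17 stood at 5.84 CPM in siCtrl, 5.66 with siMYCN, 39.0 with siHAND2 and 38.4 in the combined knockdown. B4GALNT1 was most like PCBP3 (0.98), HGSNAT and PLCL1, ST3GAL5 like KLC4 (0.97), MOAP1 and CLU, NCAM1 like SLC4A8 (0.95), SHISA6 and SCUBE1, and CD276 like KLHL13 (0.96), CRAT and CAPN1. UGCG, which fell, was most like EIF3B (0.96), a translation initiation factor at 203 CPM in siCtrl and 90.8 in the combined knockdown, and like LAP3 and SLC16A10. B4GALT5 had no close match, its highest being CHGB at 0.53. Among the members, r over the 12 samples was 0.94 for L1CAM with ST3GAL5, 0.90 for NCAM1 with B4GALNT1, 0.89 for L1CAM with ST8SIA1 and -0.11 for NCAM1 with DLL3.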

How the data were processed

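RNA sequencing of 12 IMR32 samples was analysed from the deposited table of CPM, in which the authors gave 1 value per gene and sample, with a constant of 0.0001 added to each. Per the submitters' processing notes, STAR 2.5.1 and Partek were used with hg19 (GRCh37). Counting settings, strand use and the gene annotation are not given in the sources used here. Divided by the estimated worth of 1 read, values within 0.01 read of a whole number made up 85.9 to 88.1% below 20 reads and 77.7 to 79.6% between 20 and 200 reads, so no count test was run. Gene ends are given 1 base before the table's stop coordinate, which lies 1 past the last base.

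Values were taken as log2(CPM + 1) for genes with a mean of at least 1 CPM. One model with 4 groups and 7 contrasts was fitted with limma 3.58.1 (eBayes with trend, 8 residual degrees of freedom, two-sided) in R 4.3.3, with Benjamini-Hochberg adjustment over all genes tested. The fit was tested on simulated data for siMYCN against siCtrl only, with each gene given the same spread in every group. The lower listed share and the differences between the combined samples were not simulated. For rescaling, each gene's geometric mean over the 12 samples was taken as reference (genes at a mean of 5 CPM or more), and a sample's values were divided by the median of its ratios to that reference. Samples were grouped by their titles, and no sample was left out.

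The replicate numbers of the titles gave correlations of deviations above 0.1 in all 3 pairs for siMYCN with siCtrl (0.44, 0.15 and 0.31) and siMYCN with siHAND2 (0.33, 0.14 and 0.32), and were taken to pair samples in these comparisons. In the others at least 1 pair was below 0.1, which does not show that those samples are unpaired. If siMYCN is paired by number with both siCtrl and siHAND2, those groups are paired with each other too. No 2 samples of a group held the same values over the genes.

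The members, lists and tests were chosen with earlier results of these data known. All 9 members are reported, and a list's genes are named when called in a knockdown against siCtrl, the largest changes first and at most 4 per list, or when they did not exceed 3 reads in any sample. Some genes that this rule or the marker lists cover are not reported here. Promoter windows come from RefSeq's table for GRCh38.p14, and UGCG, B4GALT5, ST3GAL5, ST8SIA1, L1CAM and CD276 matched by symbol.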

Additional observations from a re-analysis of the deposited data

Results flagged for a closer look

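The change that the HAND2 siRNA made in L1CAM differed between cells without and with the MYCN siRNA, by limma's interaction term, which is the test of that difference. Without the MYCN siRNA the change was 1.02, and with it 0.07 on the log2(CPM + 1) scale, a difference of -0.94 (95% interval -1.35 to -0.54, limma adjusted p = 0.00705). The 3 siHAND2 samples lay above all 3 siCtrl samples, whereas the combined samples (236, 220 and 156 CPM) overlapped the siMYCN samples (208, 185 and 181 CPM). After rescaling the difference was -0.75 and called, and without a filter on low values it was -0.94 and not called.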

How the results depend on the processing

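Of 30 called member changes, 20 kept their direction and their call in every setting run other than an adjusted p under 0.01. Of 87 called changes of list genes, 76 did so. All 15 enzyme ratios kept their direction in every setting run. The limits are the scale, the combined knockdown and the filter on mean CPM. With median ratio rescaling the members called were 5 in siHAND2, 8 in the combined knockdown and 6 for combined against siHAND2 (3, 5 and 3 as deposited). Scaled to the listed genes, the last 2 counts were 8 and 7. Rescaled without replicate 3 of the combined knockdown (chosen after seeing the data), they were 6, 8 and 7, with 4 for combined against siMYCN. With the replicate block the interaction was called for 4 members, beside 10.1% of all genes, and with rescaling and the block for 3. Without the block that share was 4.01%, so the counts here describe the settings and are not read as results about the members. Rescaling with the block gave 6, 8 and 7 in the first comparisons. Without a filter the interaction was called for 0 members (limma). In siMYCN, ST3GAL5 and CD276 then lost their calls (limma adjusted p = 0.0736 and 0.0519). CD276 also lost its call for siMYCN against siHAND2 (limma adjusted p = 0.0525). In the comparisons where the replicate number was taken to pair samples, the block gave 6 called in siMYCN and 6 for siMYCN against siHAND2. Whether the number also pairs the samples of the other comparisons is not settled. The cause of these changes was not tested.

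These values changed sign after rescaling (in brackets, when scaled to the listed genes, and when rescaled without combined replicate 3). They were 0.095 (0.068, 0.095) for NCAM1 in siHAND2, and in the combined knockdown 0.037 (0.027, 0.12) for B4GALT5, 0.35 (0.34, 0.44) for CD276 and 0.086 (0.077, 0.0047) for SLC35A1. For the ST8SIA1 interaction they were 0.069 (0.040, 0.096). The deposited combined change of CD276 was -4.65e-05, in effect no change, so its sign does not stand for a fall. CMAS changed sign only when rescaled without that replicate (0.019), as did B4GALT5 for combined against siMYCN (0.020).

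With each sample left out in turn, the interaction was called for 1 to 8 members. It was 8 without replicate 1 of the combined knockdown, where 35.0% of all genes were called. The change ranged in siHAND2 from -0.028 to 0.081 for B4GALNT1, -0.046 to 0.090 for B4GALT5, -0.17 to 0.056 for NCAM1 and -0.023 to 0.069 for CD276. In the combined knockdown it ranged from -0.031 to 0.37 for NCAM1 and from -0.19 to 0.20 for CD276, and the ST8SIA1 interaction from -0.24 to 0.0019. B4GALT5 in the combined knockdown ranged from -0.50 to -0.12 and lost its call in 9 of 12 cases, and ST3GAL5 in siMYCN from 0.35 to 0.45 and lost it in 2.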
